A study of Mus musculus with 24 samples.

Results

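Brainstem of knock-in mice was set against brainstem of wild-type mice in 8 of the 24 arrays of the series, 4 arrays per genotype, chosen by the tissue and genotype given for each sample. The other arrays were from cerebellum and liver of the same 2 genotypes, 8 arrays per tissue. The knock-in mice (CAG42) carried an expanded repeat of 42 CAGs in exon 1 of Atxn2, placed at the endogenous locus and therefore under the gene's own promoter, and were homozygous for it. The wild-type mice (WT) were their littermates from heterozygous matings. Targeting was done in embryonic stem cells of a strain other than C57BL/6, and the line was then backcrossed repeatedly into C57BL/6. The methods give the age of the deposited animals as 18 months. The labels state neither age nor sex, and no brainstem array was described as a pool. All 8 brainstem arrays showed a high Xist level, between 11.54 and 11.79, and the 7 probe sets of 3 Y-linked genes stayed at or below 3.22.

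Ataxin-2, the product of Atxn2, is a cytoplasmic RNA-binding protein that associates with poly(A)-binding protein and with stress granules, where untranslated mRNA collects. Expansion of its glutamine tract causes spinocerebellar ataxia type 2, in which Purkinje neurons of the cerebellum and neurons of the brainstem degenerate. The brainstem holds the serotonergic, noradrenergic, cholinergic motor and glycinergic neurons, together with heavily myelinated fibre tracts. The comparison asks which transcripts differ in this tissue when the expanded allele replaces the normal one.

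The values were log2 signals after robust multi-array averaging (RMA), which combines the probes of a probe set into a single number per array. One unit is a doubling, and differences are CAG42 minus WT. In brainstem the values ran from 2.21 to 13.6, with array medians between 4.56 and 4.62. A probe set was called when the limma p, adjusted by Benjamini-Hochberg over all 45037 tested probe sets, was under 0.05. Values near the lower end of the scale come without a detection call, so a low level cannot be told apart from background. The arrays of a genotype correlated at r of at least 0.992. The brainstem labels held up against marker genes. The summed level of 4 serotonergic genes was 8.77 at the median of the brainstem arrays against 4.85 in cerebellum, and that of 9 genes of cerebellar neurons was 12.36 against 14.93. RNA integrity was read from control probe sets at both ends of the Gapdh transcript, as the 3′ value minus the 5′ value. It was -0.02 ± 0.02 (SD, n = 4) in CAG42 and 0.04 ± 0.03 in WT, with a hair's breadth between the groups (two-sided exact permutation p = 0.0286, and 4 against 4 arrays can give no smaller p). The same measure for Actb was 0.65 ± 0.06 and 0.69 ± 0.08 (exact permutation test, p = 0.514). The part of this Gapdh difference (-0.05) in the results was not tested.

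Few transcripts were called, and most of them were lower in CAG42. Of the 45037 probe sets (of 45141 in the data, the others being array controls) 7 were called, which is 0.0155%, with 6 lower (0.0133%) and 1 higher (0.00222%). Aldh2 and P2rx7 were the named genes among them, and the other 5 have no gene in the annotation used here. Without adjustment 1877 probe sets had a limma p under 0.05, or 4.17%, of which 1081 were lower (2.4%) and 796 higher (1.77%), and 400 had a p under 0.01 (0.888%). In 1667 probe sets, or 3.7%, the 4 CAG42 arrays and the 4 WT arrays did not overlap, 962 with CAG42 lower (2.14%) and 705 with CAG42 higher (1.57%).

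Aldh2 encodes the mitochondrial aldehyde dehydrogenase that clears acetaldehyde and lipid aldehydes. Probe set 1457155_PM_at read 3.41, 3.41, 3.22 and 3.37 in the CAG42 mice and 4.52, 4.79, 4.40 and 4.68 in the WT mice. The groups were clearly separated. The signal fell by 1.25 ± 0.11 (SE) on the log2 scale (limma adjusted p = 1.19e-06). The other Aldh2 probe sets did not show this. Probe set 1448143_PM_at read between 9.06 and 9.19 in CAG42 and between 9.11 and 9.25 in WT, with a difference of -0.04 ± 0.08 (SE). Probe set 1437410_PM_at differed by -0.12 ± 0.13 (SE). The call therefore belongs to 1 of 3 probe sets of the gene, and where on the transcript each lies was not analysed here.

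P2rx7 encodes an ATP-gated cation channel of microglia and other cells, known as a trigger of the inflammasome. Probe set 1439787_PM_at read 4.27, 4.48, 4.40 and 4.29 in the CAG42 mice and 5.65, 5.64, 5.25 and 5.39 in the WT mice, with a clear gap between the groups. The signal fell by 1.13 ± 0.16 (SE; limma adjusted p = 0.00245). The other P2rx7 probe sets, 1419853_PM_a_at and 1422218_PM_at, differed by -0.18 ± 0.13 and -0.04 ± 0.10 (SE), and their groups overlapped. All their values lay at or below 4.04.

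Among the unnamed probe sets, 1441721_PM_at gave the lowest p of the comparison. It read 3.75, 3.41, 3.34 and 3.33 in CAG42 and 5.91, 5.80, 5.41 and 5.70 in WT. The groups were far apart, and the signal fell by 2.24 ± 0.15 (SE; limma adjusted p = 8.30e-09). Probe set 1447526_PM_at read between 3.72 and 3.99 in CAG42 and between 5.21 and 5.68 in WT. It fell by 1.56 ± 0.13 (SE), with an adjusted p of 4.45e-07 from limma. Probe set 1446429_PM_at read between 3.54 and 3.72 against 4.51 to 4.82 and fell by 1.03 ± 0.13 (limma adjusted p = 0.0010). Probe set 1443905_PM_at read between 3.70 and 4.12 against 5.24 to 5.89 and fell by 1.61 ± 0.22 (limma adjusted p = 0.00148). In all 4 the genotypes were fully separated.

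The only called probe set that rose was 1450483_PM_at. It read 6.05, 5.65, 5.26 and 5.08 in CAG42 and 4.52, 4.46, 4.42 and 4.82 in WT, so the lowest CAG42 mouse stood just above the highest WT mouse. The difference was 0.95 ± 0.15 (SE), with a limma adjusted p of 0.013 over the arrays of all tissues. With the 8 brainstem arrays alone the adjusted p was 0.645, and the call was also lost without WT replicate 2 (0.0944), WT replicate 3 (0.092) or CAG42 replicate 2 (0.0932).

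**Figure D1:**
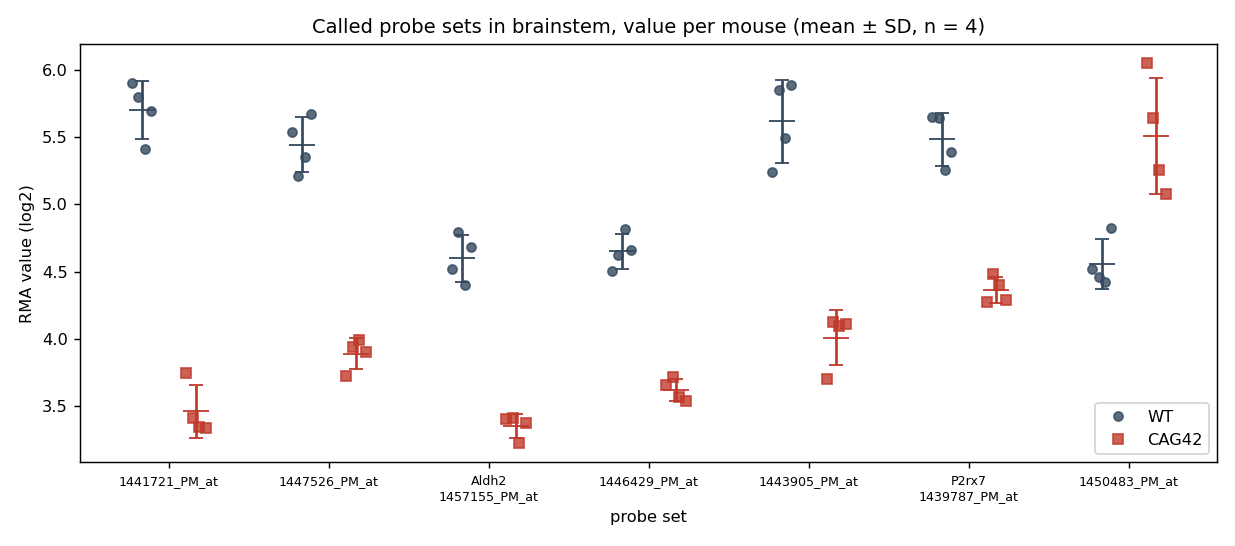
RMA values (log2, y axis) of the 7 called probe sets (x axis) in each mouse, WT as dark circles and CAG42 as red squares, with the mean and SD of 4 mice. In every probe set the genotypes are separated, most widely in 1441721_PM_at (3.33 to 3.75 in CAG42 against 5.41 to 5.91 in WT), and only 1450483_PM_at is higher in CAG42.

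**Figure D2:**
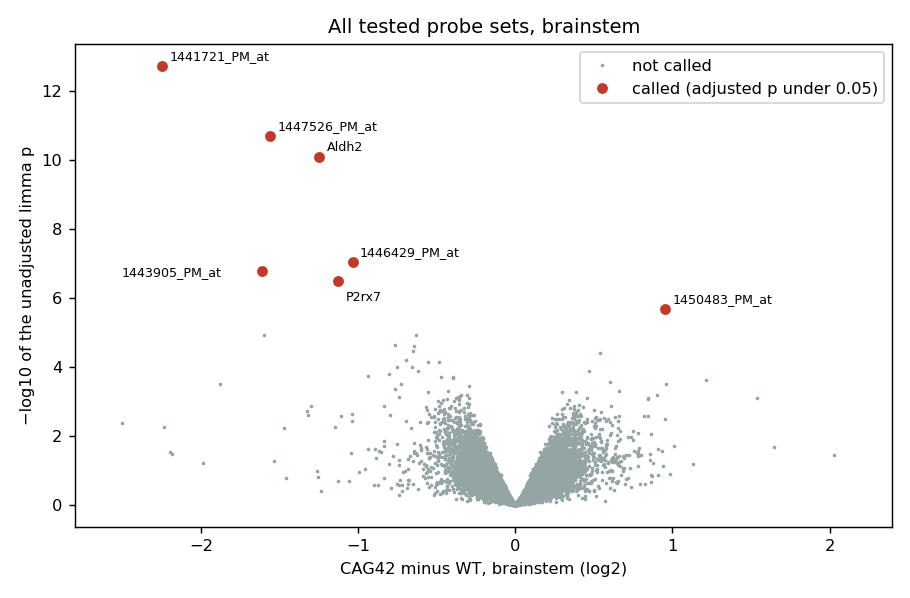
Difference between CAG42 and WT brainstem (x axis, log2) against −log10 of the unadjusted limma p (y axis) for all 45037 probe sets, the 7 called ones in red and labelled. The called probe sets stand apart from the rest, with 6 of 7 on the side where CAG42 is lower.

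The targeted gene was measured by 5 probe sets, and none was called. Probe set 1419866_PM_s_at read 10.21, 10.21, 10.25 and 9.94 in CAG42 and 10.25, 10.28, 10.38 and 10.28 in WT. All CAG42 mice lay just below all WT mice, but the difference of -0.14 ± 0.15 (SE) did not pass the test. The differences of the other 4 probe sets lay between -0.20 and 0.06. The arrays do not measure the length of the repeat, so these values do not check the genotype. Pabpc1 encodes the cytoplasmic poly(A)-binding protein that interacts with ataxin-2. Its probe set 1418883_PM_a_at read 10.94, 11.01, 10.95 and 11.02 in CAG42 and 10.88, 10.90, 10.81 and 10.87 in WT. The groups did not overlap, and the difference of 0.12 ± 0.07 (SE) was not called. The second Pabpc1 probe set differed by 0.00 ± 0.14 (SE).

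Fbxw8 encodes an F-box protein, the substrate-binding part of a cullin 7 ubiquitin ligase. Probe set 1436732_PM_s_at read 7.77, 7.72, 7.82 and 7.77 in CAG42 and 6.80, 6.61, 7.37 and 6.69 in WT. Probe set 1426944_PM_at read 7.50, 7.41, 7.41 and 7.50 in CAG42 and 6.53, 6.55, 6.94 and 6.43 in WT. On both, all CAG42 mice were above all WT mice, and WT replicate 3 stood nearest to them. The differences were 0.90 ± 0.23 and 0.84 ± 0.22 (SE), with limma adjusted p of 0.717 and 0.752 in brainstem. These SEs draw on all 3 tissues. Among brainstem mice the SDs were 0.04 (CAG42) and 0.34 (WT) on the first probe set, and 0.05 and 0.23 on the second. With array weights 1426944_PM_at was called (0.0189). The remaining, dim probe set differed by 0.21 ± 0.15.

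Adam1a encodes a metalloprotease of the ADAM family with a role in sperm function. Its probe set 1427790_PM_at read 6.21, 6.11, 6.13 and 5.73 in CAG42 and 6.65, 6.68, 6.30 and 6.70 in WT, without overlap. The difference was -0.53 ± 0.16 (SE), with a limma adjusted p of 0.915. The other probe set that the annotation gives to Adam1a was dim, at or below 2.92 in all mice, and differed by 0.00 ± 0.10. A further probe set, which the study assigns to Adam1a, has no gene in the annotation used here and was picked with its values known. That probe set, 1443378_PM_s_at, read 5.55, 5.56, 5.54 and 5.56 in CAG42 and 6.26, 6.01, 6.11 and 6.05 in WT. The groups did not overlap, with a difference of -0.55 ± 0.11 (SE). It was not called (limma adjusted p = 0.206), but was called with cerebellum and brainstem arrays (0.0148) and with array weights (0.0109). An F statistic over the 3 tissues called it too, but that test does not stand for brainstem alone. In cerebellum the difference was -0.82 ± 0.11 (SE, limma adjusted p = 0.00189). The study, which used F statistics, lists this probe set as significantly lower in brainstem. It also reports lower Adam1a in brainstem by qPCR in other animals.

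Many of the genes with the lowest p lie near Atxn2 on chromosome 5. Of the 30 named genes with the lowest p, 12 lay within 20 Mb of Atxn2 in the gene table, 1 more lay elsewhere on chromosome 5, and 17 lay on other chromosomes. Of all 17097 named genes, 447 lay within that window. Over all named probe sets within 20 Mb, 64 of 762 had an unadjusted limma p under 0.05, or 8.4%, against 3.57% of 1064 probe sets on the rest of chromosome 5 and 3.91% of 27072 on other chromosomes or without a position. Separated groups made up 7.61% of the probe sets near Atxn2, 4.79% on the rest of the chromosome and 3.51% elsewhere. Those near Atxn2 were lower in CAG42 in 35 cases and higher in 23. Distances given in genes or places count only genes with a named probe set on the array. Counted in gene order with the brightest probe set of each gene, the groups were separated for 8 of the 51 genes up to 25 places from Atxn2, itself included, for 7 of the next 50, for 10 of the next 100 and for 4 of the 100 after that. These shares are a description, since the window was chosen with earlier results known, and neighbouring genes are not independent. How much sequence of the stem cell strain remained around Atxn2 was not analysed here.

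**Figure D3:**
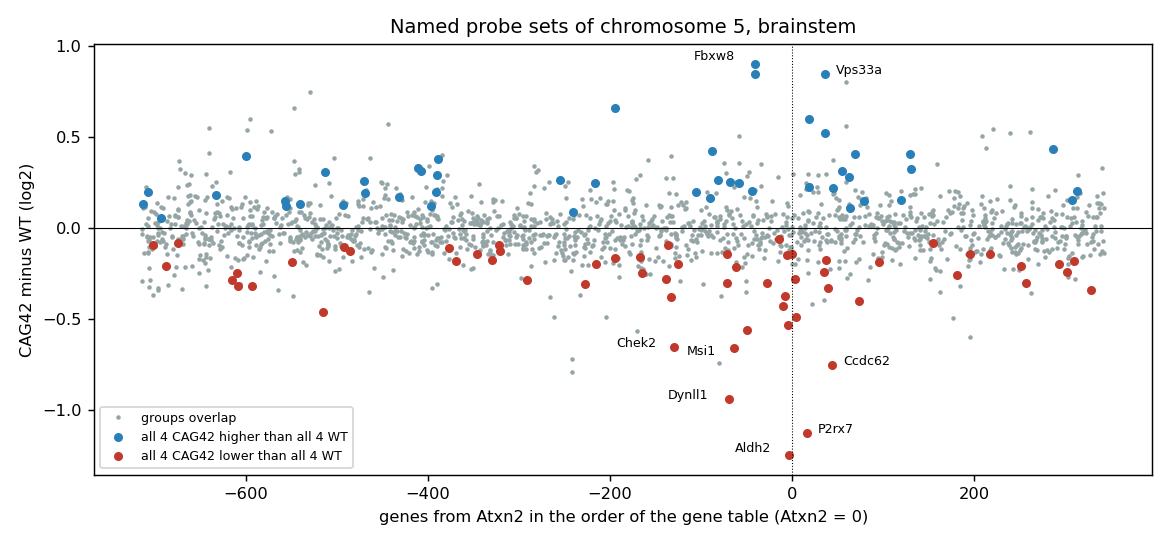
Difference between CAG42 and WT brainstem (y axis, log2) for the named probe sets of chromosome 5, placed by the order of their gene from Atxn2 (x axis). The order counts only genes with a named probe set. Probe sets in which all 4 CAG42 mice were higher (blue) or lower (red) than all 4 WT mice are coloured. The widest differences, Aldh2 at -1.25 and P2rx7 at -1.13, lie 3 and 16 genes from Atxn2.

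Within 20 Mb, 26 genes had at least 1 probe set with an unadjusted limma p under 0.01, of which 15 were lower and 11 higher by that probe set, and beyond Aldh2 and P2rx7 none was called. In 15 of the 26 that was also the brightest probe set of the gene. In the other 11 the brightest probe set was another one, and it had p under 0.05 with the same sign in 3, Diablo, Vps33a and Znhit1. Chek2, a kinase of the DNA damage checkpoint located 130 genes from Atxn2, read 4.78, 4.64, 4.68 and 4.66 in CAG42 and 5.27, 5.30, 5.60 and 5.19 in WT. Its difference was -0.65 ± 0.13 (SE) with a limma adjusted p of 0.127, and of 0.0109 with array weights. Pebp1, which encodes an inhibitor of Raf kinase, read between 11.23 and 11.62 in CAG42 and between 11.85 and 12.08 in WT, a difference of -0.56 ± 0.16. The second Pebp1 probe set, far less bright, overlapped and had the opposite sign (0.29 ± 0.33). Erp29, a chaperone of the endoplasmic reticulum, differed by -0.37 ± 0.10, and Myl2, a myosin light chain of heart muscle, by -0.49 ± 0.13, both without overlap. Diablo, which frees caspases from their inhibitors, differed by -0.39 ± 0.13 on a dim probe set and by -0.24 ± 0.10 on a brighter one, whose groups did not overlap. The groups overlapped for 1500011B03Rik (-0.74 ± 0.19), A930024E05Rik (-0.42 ± 0.12), Actl6b, a subunit of a neuronal chromatin remodelling complex (-0.49 ± 0.13), and Znhit1 (-0.35 ± 0.12).

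Some neighbours were lower on a single probe set. Dynll1, a light chain of the dynein motor, differed by -0.94 ± 0.21 (SE) on 1440278_PM_at, while its bright probe sets differed by 0.08 ± 0.15 and 0.07 ± 0.15. Msi1, an RNA-binding protein of neural progenitors, differed by -0.66 ± 0.14 on 1444306_PM_at and by -0.11 ± 0.08 on its brightest probe set. The remaining Msi1 probe set had the opposite sign (0.23 ± 0.12), with overlap. Ccdc62 has 1 probe set, which read 3.53 to 3.78 in CAG42 and 3.89 to 4.94 in WT.

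On the higher side, Vps33a, a subunit of the complexes that tether endosomes and lysosomes, was separated on both of its probe sets. Probe set 1453742_PM_at read between 5.21 and 5.79 in CAG42 and between 4.03 and 5.16 in WT, and 1434816_PM_at between 7.47 and 7.70 against 6.97 and 7.29. The differences were 0.84 ± 0.22 and 0.52 ± 0.16 (SE). Probe sets of Vps33a, Anapc5 and Bri3bp were called with array weights and with cerebellum and brainstem arrays (limma adjusted p between 0.0156 and 0.0418). Anapc5, a subunit of the anaphase-promoting complex, differed by 0.60 ± 0.14 on 1453307_PM_a_at and by 0.23 ± 0.08 on 1416906_PM_at, both without overlap, and by 0.09 ± 0.08 on its brightest probe set. Bri3bp read between 9.16 and 9.32 in CAG42 and between 8.79 and 8.88 in WT, a difference of 0.41 ± 0.11. Its other 3 probe sets overlapped, with differences of 0.21 ± 0.11, -0.06 ± 0.11 and -0.03 ± 0.13. Kmt5a, the enzyme that places a single methyl group on lysine 20 of histone H4, differed by 0.31 ± 0.11 and on its second probe set by 0.07 ± 0.10, and Ankrd13a, a ubiquitin-binding protein, by 0.26 ± 0.08. Hsd17b11, a steroid and lipid droplet enzyme, differed by 0.66 ± 0.19 on 1421011_PM_at and by 0.04 ± 0.10 on its brightest probe set. Baz1b, a chromatin remodelling factor, differed by 0.32 ± 0.11 on a dim probe set and by 0.06 ± 0.09 on its brightest one, whose groups overlapped. The groups overlapped on the leading probe sets of Gcn1, an activator of the amino acid sensing kinase GCN2 (0.51 ± 0.17), and Hip1r, a clathrin adaptor (0.37 ± 0.10), and were separated on the brightest ones (0.25 and 0.22). They also overlapped for Uncx, a homeobox gene (0.55 ± 0.16).

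Away from chromosome 5 no named gene was called, although some were under other settings. The limma adjusted p of all 30 leading genes ran up to 0.867, and the groups did not overlap in 26 of them, a count that the choice by p largely fixes. A330076H08Rik, an RNA of unknown function, read 8.69, 8.68, 8.51 and 9.22 in CAG42 and 9.35, 9.63, 9.59 and 9.58 in WT, a difference of -0.76 ± 0.14 (SE) with a limma adjusted p of 0.0998. It was called with array weights (0.0109) and without CAG42 replicate 4 (0.00492), the CAG42 mouse nearest to WT, whose omission widens the difference. Il1rap, the accessory protein of the interleukin-1 receptor, read between 3.89 and 4.40 in CAG42 and between 3.45 and 3.92 in WT on 1421843_PM_at, so the groups overlapped (0.54 ± 0.11). Its brighter probe set 1421844_PM_at was separated, at 6.79 to 7.23 against 6.65 to 6.75 (0.32 ± 0.12). The other 3 Il1rap probe sets overlapped, with differences of 0.12 ± 0.15, 0.08 ± 0.14 and 0.03 ± 0.12. Probe set 1421843_PM_at was called with array weights (limma adjusted p = 0.0257), without WT replicate 1 (0.0359) and without CAG42 replicate 3 (0.0125). Each of these mice was the one of its genotype nearest to the other genotype, so leaving it out widens the difference.

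Galr3, a receptor for the neuropeptide galanin, read between 3.87 and 4.34 in CAG42 and between 3.48 and 3.65 in WT (0.47 ± 0.10, SE). Rrm2b, the p53-inducible subunit of ribonucleotide reductase, differed by -0.62 ± 0.13 on 1437221_PM_at and by -0.13 ± 0.13 on its bright probe set. With overlap, 1437222_PM_x_at differed by -0.55 ± 0.14 and 1437476_PM_at by 0.05 ± 0.19. Probe set 1437221_PM_at was called with array weights (limma adjusted p = 0.0295). Irs4, an insulin receptor substrate, differed by -0.36 ± 0.09 without overlap. Fam107a, an actin-binding protein induced by stress, read between 9.38 and 9.56 in CAG42 and between 9.70 and 9.88 in WT (-0.31 ± 0.08), and its second bright probe set was separated in the same direction (-0.27 ± 0.13).

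Cthrc1, a secreted collagen-like protein, read 4.26, 4.80, 4.99 and 6.89 in CAG42 and 7.15, 7.01, 7.15 and 7.15 in WT. The difference of -1.88 ± 0.44 (SE) was not called (limma adjusted p = 0.456), and CAG42 replicate 4 stood close to WT. Without that mouse the difference was -2.43 and the limma adjusted p 0.00892. Leaving out the mouse nearest to WT widens the difference by construction, so this call is no added support. The laminin chains Lama1 and Lamc3 differed by -0.43 ± 0.10 and 0.33 ± 0.09. The second Lamc3 probe set overlapped and had the opposite sign (-0.12 ± 0.09). Samd11, a nuclear protein, read 6.35, 6.30, 6.45 and 5.85 in CAG42 and 3.90, 5.36, 5.46 and 5.36 in WT (1.22 ± 0.28). Pnma2, a neuronal antigen of paraneoplastic disease, ranged from 4.17 to 6.70 in WT and from 6.49 to 7.62 in CAG42, so its groups overlapped (1.54 ± 0.40). Its brighter probe set differed by 0.05 ± 0.14.

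The remaining leading genes lay mostly at low signal. Htt, the gene of Huntington disease, differed by -0.46 ± 0.12 (SE) on 1446337_PM_at at a WT mean of 3.91, while its other 3 probe sets differed by between -0.16 and 0.05. Gid4, part of a ubiquitin ligase, differed by 0.66 ± 0.16, Calcoco2, an autophagy receptor, by 0.39 ± 0.10, and A530053G22Rik by 0.96 ± 0.22, all without overlap. Xpo4, a nuclear exportin (-0.35 ± 0.09), Ntng2, a netrin-like guidance protein (-0.36 ± 0.09), and Nebl, a protein of the muscle Z line (-0.31 ± 0.08), had lower values without overlap. The second probe sets of Nebl, which is bright, and Ntng2 overlapped and both differed by 0.04. The other 3 Xpo4 probe sets overlapped, with differences of -0.11 ± 0.10, -0.11 ± 0.11 and 0.13 ± 0.14. Further Gid4 probe sets differed by between -0.07 and 0.27. The brightest, 1438006_PM_at, was separated (0.27 ± 0.13), while 1427066_PM_a_at, also bright, overlapped (0.08 ± 0.20). Of the 30 genes, 20 had further probe sets, 41 in all, of which 31 had the same sign as the leading one and 6 also had an unadjusted limma p under 0.05.

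Genes of 32 lists, covering cell types, ataxin-2 biology and the pathways of the leading genes, were read by the brightest probe set of each gene. Of 342 genes 302 were measured, and P2rx7 was the only one called, against 0.0155% of all probe sets. Over all probe sets the median difference was -0.01, and 46.2% were above 0. The transmitter neurons of the brainstem showed no call. Among serotonergic genes Slc6a4, the serotonin transporter, differed by 0.08 ± 0.10 (SE) and Lmx1b, a transcription factor of these neurons, by -0.10 ± 0.15, with a list median of 0.00. Th, the first enzyme of catecholamine synthesis, differed by 0.17 ± 0.14, and Phox2a, a transcription factor of noradrenergic neurons, by 0.21 ± 0.11. Isl1, a transcription factor of motor neurons, read 4.81, 4.62, 5.29 and 5.52 in CAG42 and between 5.23 and 6.003 in WT, a difference of -0.40 ± 0.17 with overlap. The glycine and GABA list had a median of 0.03 over 8 genes, the glutamate list -0.02 over 5 and the general neuron list -0.04 over 10.

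Myelin and blood genes leaned to one side, as some other lists did. Differences were above 0 for 9 of 11 choroid plexus, 9 of 11 immediate early and 8 of 10 interferon-stimulated genes. They were below 0 for 8 of 10 general neuron genes. All 12 measured genes of oligodendrocytes and myelin had differences above 0, with a median of 0.14 and none called. In 3 of them the groups did not overlap, all with CAG42 higher, against 1.57% of all probe sets. Mag, an adhesion protein of myelin, read 10.44, 10.43, 10.35 and 10.42 in CAG42 and 10.25, 10.28, 10.08 and 10.14 in WT (0.22 ± 0.09, SE). Ermn, a cytoskeletal protein of myelin, read between 9.46 and 9.65 against 9.09 and 9.44 (0.26 ± 0.10), and Olig1, a transcription factor of the lineage, was separated as well (0.16 ± 0.23). Mbp, the major basic protein of myelin, differed by 0.07 ± 0.09. Olig1 and Mbp were picked with their values known. The summed level of the list ran from 14.10 to 14.19 in CAG42 and from 14.02 to 14.09 in WT. In bulk tissue more cells of a type and more RNA per cell cannot be told apart. All 5 erythrocyte genes were above 0 with a median of 0.44, among them Hbb-b2, a beta globin (0.57 ± 0.24), Hba-a1, an alpha globin (0.44 ± 0.20), and Alas2, the heme synthesis enzyme of red cells (0.93 ± 0.39). The groups overlapped for all 5, with summed levels of 13.87 to 14.27 in CAG42 and 13.29 to 14.17 in WT.

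The other cell lists had medians near that of all probe sets or spread widely between mice. Medians were -0.02 for 9 astrocyte genes, 0.02 for 12 microglial genes and 0.03 for 8 genes of vessels, none with separated groups. Gfap, the intermediate filament of reactive astrocytes, differed by -0.21 ± 0.18 (SE), and P2ry12, a receptor of resting microglia, by 0.35 ± 0.25. The choroid plexus list had a median of 0.17 over 11 genes, with Kcne2, a potassium channel subunit, between 6.07 and 7.19 in CAG42 and between 5.14 and 7.38 in WT. The Hox genes, which mark position along the hindbrain and spinal cord, had a median of 0.11 over 15 genes, and all groups overlapped. They varied between mice of a genotype, shown here by Hoxb8 and Hoxb5, picked with their values known. Hoxb8 read 4.28, 3.66, 5.11 and 4.10 in CAG42 and 4.96, 5.67, 3.31 and 3.29 in WT, and Hoxb5 read 7.12, 6.32, 7.70 and 6.96 in CAG42 and 7.82, 7.70, 5.67 and 5.92 in WT. WT replicates 1 and 2 were high and WT replicates 3 and 4 low for both genes.

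Lists around ataxin-2 function stayed close to 0. Of 15 ataxin-2 partners and poly(A) proteins none was called, and the median was 0.04. Atxn2l, the paralogue of Atxn2, differed by -0.17 ± 0.13 (SE). Of 14 genes of stress granules and mRNA decay, Tia1 and Tial1, RNA-binding proteins that nucleate stress granules, were separated at 0.14 ± 0.12 and 0.17 ± 0.11. Of all probe sets 1.57% were separated with CAG42 higher. None of the 14 had an unadjusted limma p under 0.05, and the median was 0.02. The cullin and F-box list had a median of 0.01 over 11 genes, and Cul7, the cullin that pairs with Fbxw8, differed by 0.07 ± 0.11. The polyglutamine and ataxia list had a median of 0.00 over 7 genes, with Atn1, the gene of dentatorubral-pallidoluysian atrophy, at -0.26 ± 0.12. Heat shock chaperones had a median of 0.01 over 8 genes and the unfolded protein response 0.07 over 10. Hsp90aa1, a cytosolic chaperone, differed by 0.13 ± 0.10, and Pdia4, a disulfide isomerase, by 0.14 ± 0.11.

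In the pathways of the called and leading genes no further gene was called. Of the 18 measured purinergic receptors and nucleotide enzymes only P2rx7 was called, and it was already a called gene when the list was made. Of all probe sets 0.0155% were called. The list median was -0.03. The aldehyde and alcohol dehydrogenases had a median of 0.00 over 17 genes, with Aldh3b1 at 0.26 ± 0.13 (SE). The inflammasome and interleukin-1 list had a median of 0.07 over 11 genes, with Txnip, a binding partner of NLRP3, separated at 0.37 ± 0.31. Groups were separated with CAG42 higher in 2 of the 11, against 1.57% of all probe sets. Il1rap, already a leading gene when the list was made, was among them, so this count is partly fixed by the choice of list. In the DNA damage and p53 list Chek2, already a leading gene when the list was made, had separated groups, as 3.7% of all probe sets did, and the other 14 did not. The list median was 0.01. Galr1, another galanin receptor, differed by -0.24 ± 0.12. Adam17, the protease that sheds tumour necrosis factor, differed by 0.16 ± 0.09. Interferon-stimulated genes had a median of 0.13 over 10 and immediate early genes 0.14 over 11, and no group was separated in either list. Fos, an immediate early transcription factor, read 9.44, 9.38, 8.55 and 9.11 in CAG42 and 8.58, 8.21, 9.14 and 8.22 in WT.

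**Figure D4:**
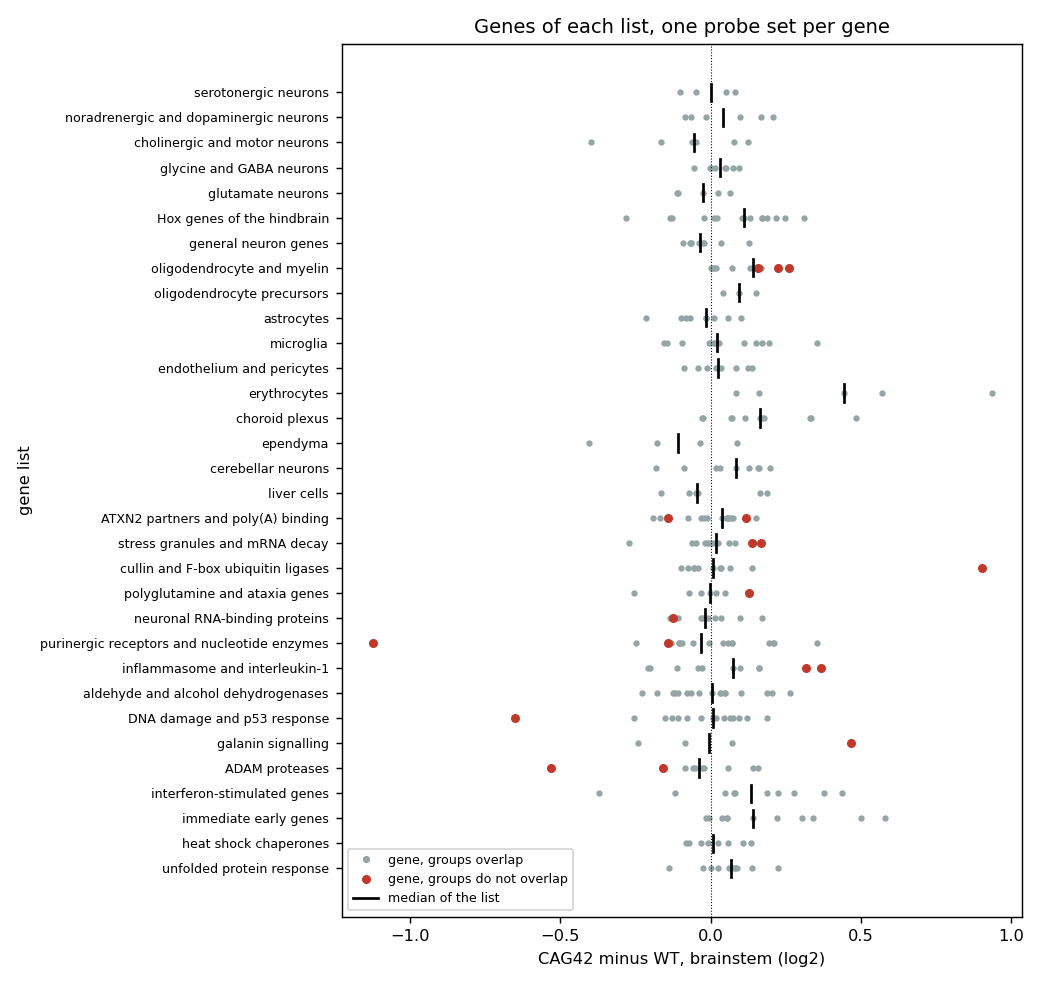
Differences between CAG42 and WT brainstem (x axis, log2) for the genes of each list (y axis), with the median of the list as a black bar and genes whose groups did not overlap in red. Most genes lie within 0.5 of 0, the median of the myelin list is 0.14 and that of the erythrocyte list 0.44, and P2rx7 at -1.13 is the single called gene.

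Cerebellum and liver were used to ask whether the differences were shared. The labels do not say whether tissues with the same number came from the same animal. Over probe sets, deviations of brainstem and cerebellum arrays with the same genotype and number correlated at r between 0.22 and 0.38. The fit takes these arrays as independent. A random block for arrays that share genotype and number left the counts of probe sets called for a tissue difference, 1 against cerebellum and 4 against liver, as they were. In cerebellum 20 probe sets, or 0.0444%, were called, and in liver 66, or 0.147%. Of the 7 probe sets called in brainstem, 5 were also called in cerebellum and 1, Aldh2, in liver. The genotypes were separated in the same direction in cerebellum for 6 of the 7 and in liver for 4, against separated groups in 3.94% and 2.76% of all probe sets in either direction. P2rx7 differed by -1.14 ± 0.16 (SE) in cerebellum, 1447526_PM_at by -1.71 ± 0.13 and 1443905_PM_at by -2.07 ± 0.22. Aldh2 differed by -0.61 ± 0.11 in cerebellum and -1.23 ± 0.11 in liver.

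The test of the difference between tissues called 1 probe set against cerebellum, or 0.00222%, and 4 against liver, or 0.00888%, while 1.68% and 4.69% had an unadjusted limma p under 0.05. Against cerebellum it was 1441721_PM_at, with -2.24 in brainstem and -0.63 in cerebellum, a difference of -1.61 ± 0.21 (SE) with a limma adjusted p of 0.0032. Its cerebellar values were low in both genotypes, between 2.89 and 3.21 in CAG42 and between 3.45 and 3.99 in WT. Against liver, 1441721_PM_at differed by -1.98 ± 0.21 (limma adjusted p = 8.83e-05) and 1447526_PM_at by -1.10 ± 0.18 (limma adjusted p = 0.0399). The other 2 were Kdm2b, a histone demethylase gene 21 genes from Atxn2, and 1459861_PM_s_at. Both were higher in CAG42 liver, and in brainstem they differed by -0.03 ± 0.14 and -0.08 ± 0.22 (SE). Fbxw8 was called in cerebellum, at 1.32 ± 0.23 and 1.35 ± 0.22 on its brighter probe sets, and not in brainstem by the fit without array weights. The difference between these tissues was not called (-0.42 ± 0.32 and -0.50 ± 0.31, SE).

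**Figure D5:**
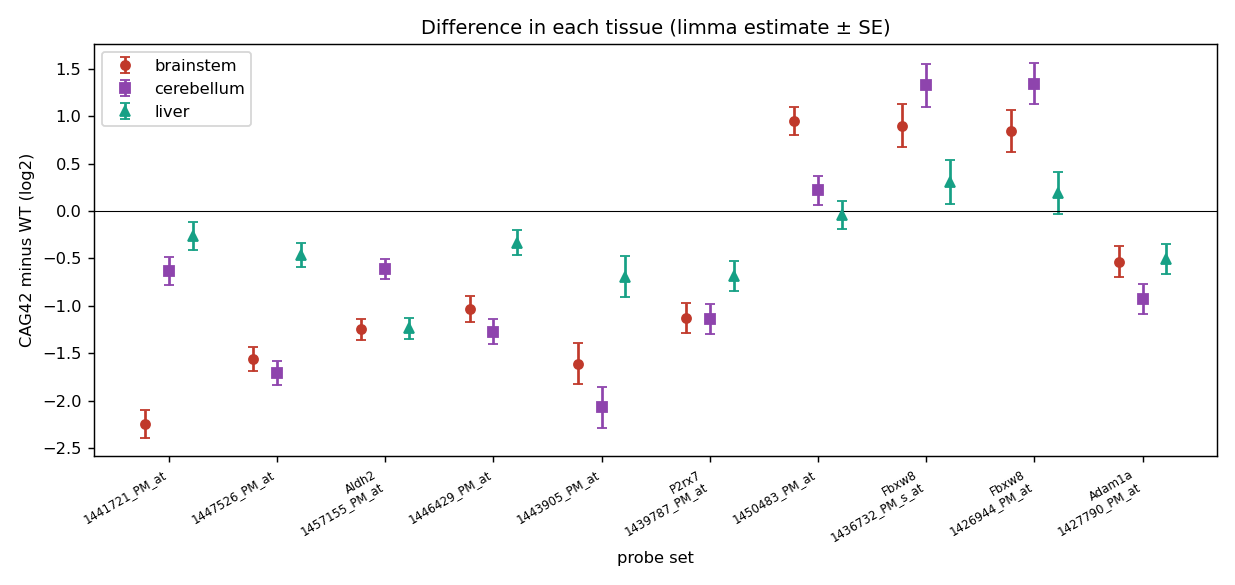
Difference between CAG42 and WT (y axis, log2, limma estimate and SE) in brainstem, cerebellum and liver for the 7 called probe sets and for probe sets of Fbxw8 and Adam1a (x axis). Brainstem and cerebellum lie on the same side of 0 for all of them, and 1441721_PM_at shows the widest gap between these tissues, with -2.24 in brainstem and -0.63 in cerebellum.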

How the data were processed

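Brainstem, cerebellum and liver RNA of 24 samples was hybridised to Affymetrix mouse expression arrays, 4 per tissue and genotype. The deposited values are log2 signals, which the authors made by RMA in R 2.7.0 according to the submitters' processing notes. Their normalization fixes the scale of each array, and no detection call is given. The 104 control probe sets were left out. Of the remaining 45037 probe sets, 28898 were assigned to 1 gene, 551 to several and 15588 to none by the platform annotation, and gene order came from the RefSeq gene table of GRCm38.p6, used for names, neighbours and distance from Atxn2 only, since the data name no build. A linear model with 6 group means over all 24 arrays was fitted with limma 3.58.1 in R 4.3.3, with empirical Bayes moderation and Benjamini-Hochberg adjustment over all probe sets, and differences between tissues were tested as interactions. The study's results give 4 animals per genotype at this age, and 4 arrays per group limit the precision.

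The members, lists, window and tests were chosen with earlier results of these data known. Named were Atxn2, Pabpc1, Adam1a and Fbxw8, all called probe sets, the 30 genes of lowest p, up to 4 genes of lowest p per list, genes within 20 Mb of Atxn2 with p under 0.01, and further probe sets of these genes, though not all of them. Exceptions are stated beside their values. Each list gene was read by its probe set with the highest mean over the 24 arrays. The numbers did not pair WT with CAG42 mice (r between -0.09 and 0.21). The fit was tested on simulated data. Alternatives covered the arrays fitted, blocks, filters, weights, normalization and leaving out each array.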

Additional observations from a re-analysis of the deposited data

Results flagged for a closer look

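In 33 of 362 groups of 4 arrays a single value stood far from the other 3 by Dixon's criterion, which chance alone meets in about 1 group in 20. No explanation was weighed.

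WT replicate 1 stood above its group for Entpd3 (7.09 against 6.86 to 6.88), Aldh6a1 (9.20 against 8.88 to 8.90) and Tubb3 (10.49 against 10.39 to 10.40). WT replicate 1 stood below its group for Samd11 (3.90 against 5.36 to 5.46), Aldh1a3 (3.26 against 3.38 to 3.40), Rarres2 (6.80 against 7.40 to 7.46), Ddx6 (8.91 against 9.51 to 9.54) and Cx3cr1 (8.16 against 8.26 to 8.26). WT replicate 2 stood above its group for Aldh3b1 (4.09 against 3.73 to 3.74) and Cacna1a (7.25 against 7.24 to 7.24). WT replicate 2 stood below its group for Cthrc1 (7.01 against 7.15 to 7.15) and Pabpc1 (3.74 against 4.08 to 4.13). WT replicate 3 stood above its group for Fbxw8 (3.14 against 2.80 to 2.85). WT replicate 3 stood below its group for Adam1a (6.30 against 6.65 to 6.70). WT replicate 4 stood above its group for Isl1 (6.003 against 5.23 to 5.35) and Cldn5 (8.76 against 8.21 to 8.23). CAG42 replicate 1 stood above its group for Gcn1 (5.43 against 4.92 to 5.004) and Adam19 (7.57 against 7.29 to 7.31). CAG42 replicate 1 stood below its group for 1443905_PM_at (3.70 against 4.10 to 4.12), Vps33a (7.47 against 7.68 to 7.70) and Ddx6 (8.96 against 9.24 to 9.26). CAG42 replicate 2 stood above its group for Atf3 (3.73 against 3.62 to 3.62). CAG42 replicate 2 stood below its group for Calcoco2 (2.92 against 3.19 to 3.23) and Lmx1b (2.84 against 3.01 to 3.02). CAG42 replicate 3 stood above its group for Xpo4 (4.16 against 4.02 to 4.04), Hoxa3 (5.22 against 4.81 to 4.84) and Irf7 (4.51 against 3.66 to 3.77). CAG42 replicate 4 stood above its group for 1500011B03Rik (9.56 against 8.74 to 8.78), Flt1 (7.86 against 7.62 to 7.66) and Cldn5 (8.90 against 8.27 to 8.32). CAG42 replicate 4 stood below its group for Aldh1b1 (4.19 against 4.88 to 4.94), Trem2 (6.04 against 6.35 to 6.41) and Atxn2 (9.94 against 10.21 to 10.25).

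Differences between tissues passed the interaction test for 4 probe sets. The difference in 1441721_PM_at was -1.61 in brainstem minus cerebellum and -1.98 in brainstem minus liver, and that in 1447526_PM_at was -1.10 in brainstem minus liver. For Kdm2b (-1.55) and 1459861_PM_s_at (-2.55) the genotypes differed in liver, by 1.52 and 2.47, and their brainstem groups overlapped.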

How the results depend on the processing

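The count of 7 called probe sets became 6 with brainstem arrays alone, 13 with cerebellum and brainstem arrays (6 of the 7 shared), 9 with a random block, 2 with a filter on dim probe sets (1443905_PM_at and 1447526_PM_at, since the filter removed the other 5, Aldh2, P2rx7 and 1441721_PM_at among them), 25 with array weights (all 7 shared), 8 with median centring, 17 by an F statistic over 3 tissues and 0 with means over the probe sets of each gene (616 at an unadjusted p under 0.05, Aldh2 at an adjusted p of 0.180). Leaving out the named probe sets near Atxn2, an alternative added with the data in view, removed Aldh2 and P2rx7 and left 5. Without single arrays it ran from 6 to 11, with 11 without WT replicate 1. With the replicate block 5 were called, and P2rx7 (limma adjusted p = 0.0598) and 1450483_PM_at (0.276) were lost, although the numbers do not pair the mice (3 of 8 arrays correlated best with their own number). 1450483_PM_at was also lost with cerebellum and brainstem arrays (0.114). Probe sets differing between brainstem and liver numbered 3 or 4 without single arrays. Array weights raised the probe sets differing between brainstem and liver from 4 to 13. The Gapdh difference ran from -0.0638 to -0.0394 without single arrays, where 0.0571 is the smallest exact permutation p.

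Of the values for single probe sets under an alternative, 2947 kept their direction and side of the threshold, 17 gained a call (9 of them with array weights), 7 lost it and 47 reversed, all of these small and uncalled. The cause was not tested. Without single arrays Grin2a ran from -0.195 to 0.00111, Car8 from -0.26 to 0.00135, Skp2 from -0.13 to 0.000795, Aqp1 from -0.0624 to 0.546, Pdgfra from -0.0499 to 0.246, Bag3 from -0.146 to 0.0193, Galr2 from -0.0163 to 0.139, Fgf14 from -0.147 to 0.00845, Gal from -0.184 to 0.0606, Slc6a5 from -0.00978 to 0.145, Dbh from -0.17 to 0.00748, Cldn5 from -0.0676 to 0.221, Atxn10 from -0.0715 to 0.000387, Htr1a from -0.0384 to 0.207, Tph2 from -0.158 to 0.0857, Vcan from -0.00666 to 0.0761, Gria1 from -0.0762 to 0.0296, Ccdc153 from -0.386 to 0.219, Atxn2 1438144_PM_x_at from -0.0211 to 0.0382, Adam1a 1427791_PM_a_at from -0.0391 to 0.0426 and Pabpc1 1453840_PM_at from -0.0919 to 0.0416. Array weights gave Cldn5 -0.00243 and Tph2 0.0402. Quantile normalization within tissue gave Adam1a 0.00954 and Pabpc1 0.0142. Arrays centred on their median gave Adam1a 0.0107 and Pabpc1 0.0114.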
